A study of Mus musculus with 8 samples.

Results

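In the distal colon of *Hsf1* null mice, 7 small membrane protein genes that sit beside *Hsf1* on chromosome 15 were described, namely *Ly6c1*, *Ly6c2*, *Ly6a*, *Ly6e*, *Ly6d*, *Ly6k* and *Psca*. They are 7 of the 15859 genes in the count table, and they were chosen by their position within 2 Mb of *Hsf1* and by genotype differences already seen in these samples. Their differences between *Hsf1* null and WT mice are therefore given as a description: no p is given for a single member in that contrast, and counts of members called stand beside the share over all tested genes. All 7 passed the filter on low counts that left 14371 genes for testing. *Ly6c2* was lower in both *Hsf1* null mice than in both WT mice at each day, and *Ly6c1* was lower at day 15. *Ly6k* and *Psca* were near 0 in WT mice and higher in all 4 *Hsf1* null mice. *Ly6a*, *Ly6c1*, *Ly6d* and *Ly6e* rose after AOM–DSS in both genotypes, and *Ly6d* lost that call when single mice were left out more often than the others did in *Hsf1* null mice.

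Ly6 proteins are small cell surface proteins with a fold of finger-like loops, held in the membrane by a glycosylphosphatidylinositol (GPI) lipid anchor. Their genes arose by local duplication, and many are used as markers of blood, endothelial or epithelial cells. Antibodies against Ly6C, the product of *Ly6c1* and *Ly6c2*, mark inflammatory monocytes, and *Ly6a*, which encodes stem cell antigen Sca, is known as a marker of regenerating gut epithelium and of endothelium. HSF1 is the transcription factor that drives heat shock protein genes.

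RNA was sequenced from 8 male mice on a mixed BALB/c and 129SvEV background, 2 in each of 4 groups. The paper describes the WT mice as littermates of *Hsf1* null mice, without the litter of each mouse. WT mice and mice homozygous for the *Hsf1* null allele were left untreated (day 0, called untreated below) or received azoxymethane (AOM), a colon carcinogen, at 10 mg/kg at 8 weeks of age, and 7 days later 1.5% dextran sulfate sodium (DSS), which injures the epithelium, in the water for 5 days. Treated mice are called day 15, as in the titles, although the protocol in the labels stops with DSS. The labels give an age of 10 weeks for all mice. The null allele is carried in the germline and is not limited to a cell type. Each replicate is 1 mouse. Total counts were between 2553348 and 12440257 a mouse, with the smallest totals in replicate 2 of both day 0 groups. Levels are given as CPM, which are counts scaled to the TMM-adjusted library size. *Hsf1* itself measured 40.5 and 36.5 CPM in the untreated WT pair and 50.5 and 45.9 CPM in the treated WT pair. The untreated *Hsf1* null pair measured 14.0 and 11.9 CPM and the treated null pair 13.5 and 9.09 CPM, below every WT mouse but not at 0. All 8 colonocyte and all 6 goblet cell markers had counts in every group.

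The genes lie in the order *Psca*, *Ly6d*, *Ly6k*, *Ly6e*, *Ly6a*, *Ly6c1*, *Ly6c2* and then *Hsf1* on GRCm38 (mm10, GENCODE M21). *Psca* (chr15:74714839-74717069, plus strand) is the farthest, 1.76 Mb from *Hsf1*. *Ly6d* (chr15:74762056-74763620), *Ly6k* (chr15:74796874-74799986), *Ly6a* (chr15:74994877-74998031), *Ly6c1* (chr15:75044018-75048830) and *Ly6c2* (chr15:75108158-75111970) are on the minus strand. *Ly6e* (chr15:74955051-74959905) is on the plus strand, and *Hsf1* (chr15:76477422-76501913) begins 1.37 Mb beyond *Ly6c2*.

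*Ly6c1* and *Ly6c2* are near copies. Their coding sequences, 393 bases each, are identical at 384 bases (97.7%), whereas *Ly6a* is 83.7% identical to *Ly6c1* and the other pairs of members are at most 70% identical over their aligned bases, apart from *Ly6a* and *Ly6c2* at 83.5%. The first 120 coding bases of each are shown because a sequenced fragment can be given to *Ly6c1* or *Ly6c2* only where they differ, and capitals mark the 6 differing bases.
Ly6c1: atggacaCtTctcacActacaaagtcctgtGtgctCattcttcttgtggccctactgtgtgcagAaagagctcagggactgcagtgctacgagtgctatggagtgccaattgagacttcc
Ly6c2: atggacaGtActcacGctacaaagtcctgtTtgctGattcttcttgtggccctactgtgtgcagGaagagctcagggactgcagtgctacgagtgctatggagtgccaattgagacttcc
Of the 50-base windows in the protein-coding transcripts, 32.8% of those of *Ly6c1*, 31.2% of those of *Ly6c2* and 19% of those of *Ly6a* also occur in another gene, mostly within this trio. Counts of these members are therefore uncertain as far as the authors' counting could split such reads. No window of *Ly6d*, *Ly6e* or *Psca* was shared. In *Ly6k*, 32.7% of the windows recur in *Gm17189*, an antisense gene that covers the whole of *Ly6k*, and without a stated strand setting reads from the pair cannot be told apart.

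RefSeq promoters (GRCm38.p6) were matched for 2 of the 7 members, *Ly6c1* and *Ly6c2*, and are shown because both were lower in *Hsf1* null mice at day 15. Capitals mark the TATA box in *Ly6c1* (chr15:75048788-75049087, minus strand) and a pair of inverted heat shock units, the sequence HSF1 is known to bind in longer arrays, in *Ly6c2* (chr15:75111922-75112221, minus strand).
Ly6c1 promoter: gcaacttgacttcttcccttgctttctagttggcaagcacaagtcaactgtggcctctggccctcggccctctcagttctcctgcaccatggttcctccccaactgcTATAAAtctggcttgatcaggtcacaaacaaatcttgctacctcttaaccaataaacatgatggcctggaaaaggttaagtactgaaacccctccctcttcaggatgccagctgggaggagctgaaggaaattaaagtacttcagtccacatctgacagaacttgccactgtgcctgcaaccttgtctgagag
Ly6c2 promoter: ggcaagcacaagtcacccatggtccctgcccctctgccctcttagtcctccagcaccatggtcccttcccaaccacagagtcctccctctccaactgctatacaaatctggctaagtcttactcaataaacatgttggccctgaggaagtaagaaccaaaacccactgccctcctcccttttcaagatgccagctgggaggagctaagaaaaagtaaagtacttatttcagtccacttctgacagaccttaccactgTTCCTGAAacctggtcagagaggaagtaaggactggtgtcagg
The promoters were identical at 208 of 266 aligned bases (78.2%). Both strands were searched for a 2-unit heat shock element (GAANNTTC or TTCNNGAA), which 15.1% of 32851 promoters hold, and for a TATA box (TATAAA or TTTATA), which 13.6% hold. The TATA match in *Ly6c1* begins at position -143 from the start site shown, and the promoter of the other *Ly6c1* start site listed held neither motif. The heat shock match in *Ly6c2* begins at position 8, or at -27 from the other start site listed, and overlaps no other motif. No promoter of the pair held a 3-unit heat shock element, which contains the 2-unit form (0.603% of all promoters), a GAS motif for STAT factors (TTCNNNGAA, 8.3%) or an interferon-stimulated response element (GAAANNGAA or TTCNNTTTC, 8.56%). These are matches of letters in a short window and not measured binding.

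Levels were set side by side between genes per kb of exon, with all annotated exons of a gene merged. The order depends on that length, which was 2740 bases for *Ly6c2*, 860 for *Psca* and 829 for *Ly6k*. The longest protein-coding transcript of *Ly6c2* has 822 bases. In WT mice at day 0, *Ly6a* was highest at 184 ± 15.7 CPM per kb (SD, n = 2). It was followed by *Ly6e* at 39.5 ± 22.6 and *Ly6c1* at 34.3 ± 0.0966 CPM per kb, whose mice overlapped. *Ly6c2* came next at 10.1 ± 0.114, then *Ly6d* at 3.77 ± 1.56 and *Ly6k* at 0.236 ± 0.334 CPM per kb, and *Psca* had no count. In *Hsf1* null mice at day 0 *Ly6c2* was last of the 7 by this measure, at 2.12 ± 0.219 CPM per kb, below *Psca* at 3.81 ± 0.524 and *Ly6k* at 2.94 ± 0.472, with no overlap between neighbours in this group. In CPM not scaled by length *Ly6c2* was above both in these mice, with a mean of 5.8 against 3.3 for *Psca* and 2.4 for *Ly6k*. At day 15 *Ly6a* reached 1728 ± 769 CPM per kb in WT and 1066 ± 208 in *Hsf1* null mice and remained the highest member. *Ly6e* and *Ly6c1* overlapped in WT mice at day 15, at 325 ± 143 and 296 ± 80.5 CPM per kb. In *Hsf1* null mice at day 15 they were apart, at 350 ± 87.1 and 76.3 ± 29.8 CPM per kb.

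*Ly6c1* and *Ly6c2* were the members called lower in *Hsf1* null mice, both at day 15. *Ly6c1* measured 57.3 and 57.6 CPM in the untreated WT pair and 47.8 and 59.7 CPM in the untreated null pair. After treatment the WT pair measured 400.4 and 591 CPM and the null pair 92.6 and 163 CPM. The genotypes overlapped at day 0 and were apart at day 15, when *Ly6c1* was 3.87-fold lower in *Hsf1* null mice (log2 fold change -1.95, SE 0.32). *Ly6c2* measured 27.8 and 27.4 CPM in the untreated WT pair and 6.24 and 5.39 CPM in the untreated null pair. The treated WT pair measured 68.4 and 115 CPM and the treated null pair 4.03 and 11.4 CPM. *Ly6c2* was thus apart between the genotypes at both days, 4.66-fold lower in *Hsf1* null mice at day 0 (log2 fold change -2.22, SE 0.47) and 11.8-fold lower at day 15 (log2 fold change -3.56, SE 0.46).

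The counts of the pair were also added, since the sum does not depend on how reads were split between them. The sum was 85.2 and 85.0 CPM in the untreated WT pair and 54.0 and 65.0 CPM in the untreated null pair. It was 469 and 706 CPM in the treated WT pair and 96.6 and 175 CPM in the treated null pair. The genotypes were apart at both days in the sum as well. The log2 fold change of the sum between *Hsf1* null and WT mice was -0.52 at day 0 and -2.11 at day 15. The share that *Ly6c2* takes of the pair's counts is given with an exact (Clopper-Pearson) 95% interval, which covers counting error only. It was 32.7% (29.6 to 35.9) and 32.2% (26 to 39) in WT mice at day 0. The untreated null pair had 11.6% (9.21 to 14.2) and 8.29% (4.71 to 13.3), on 658 and 181 counts. With treatment the share was 14.6% (13.7 to 15.6) and 16.3% (15.4 to 17.2) in the WT pair, and 4.17% (2.74 to 6.06) and 6.51% (5.23 to 7.99) in the null pair. Every *Hsf1* null mouse had a lower share of *Ly6c2* than either WT mouse of the same day, and within each genotype both day 15 mice were lower than both day 0 mice. The part that read assignment between these near copies has in the share was not tested.

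**Figure D1:**
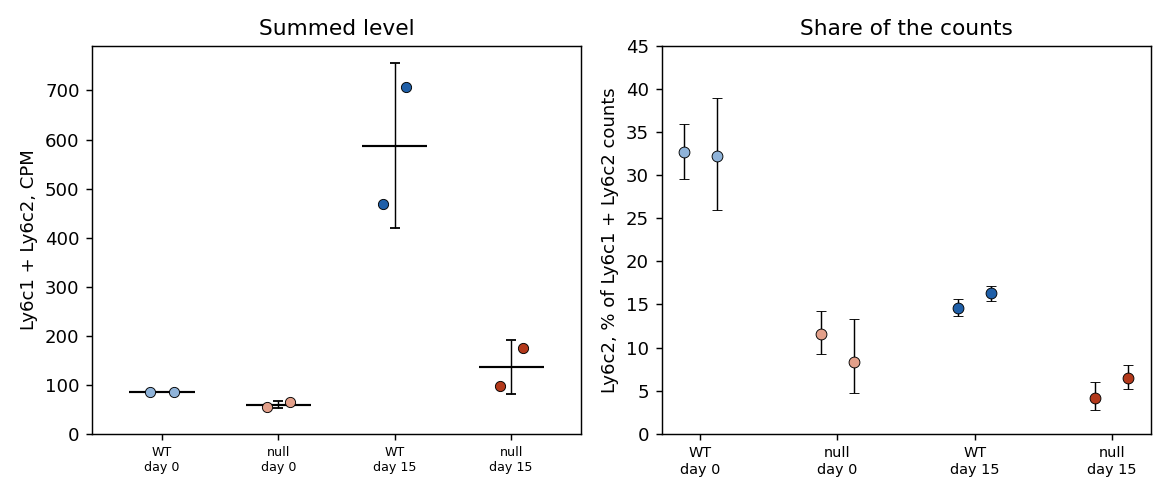
Left, summed CPM of *Ly6c1* and *Ly6c2* by group (points are mice, lines and bars the mean ± SD, n = 2). Right, *Ly6c2* as a percentage of the pair's counts in each mouse with its exact 95% interval. The share was near 32% in WT mice at day 0 and between 4.17% and 6.51% in *Hsf1* null mice at day 15.

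*Ly6a* and *Ly6e* were abundant and differed less between the genotypes. *Ly6a* measured 235 and 208 CPM in the untreated WT pair and 242 and 401 CPM in the untreated null pair, narrowly apart. The treated WT pair measured 1427 and 2737 CPM and the treated null pair 1107 and 1461 CPM, so the genotypes overlapped. The log2 fold change of *Ly6a* between *Hsf1* null and WT mice was 0.53 (SE 0.38) at day 0 and -0.70 (SE 0.38) at day 15. *Ly6e*, a gene induced by interferon, measured 210.0 and 88.9 CPM in the untreated WT pair and 289 and 380 CPM in the untreated null pair. The treated WT pair measured 848 and 1614 CPM and the treated null pair 1557 and 1091 CPM. *Ly6e* was apart between the genotypes at day 0 (log2 fold change 1.15, SE 0.45) and overlapped at day 15 (log2 fold change 0.10, SE 0.44). The day 0 value was 1.91 without replicate 1 and 0.69 without replicate 2 of WT day 0.

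*Ly6d*, *Ly6k* and *Psca*, lie at the far end of the row from *Hsf1*. *Ly6d*, known from squamous epithelium and early B cells, measured 3.63 and 1.99 CPM in the untreated WT pair and 10.2 and 6.83 CPM in the untreated null pair (log2 fold change 1.52, SE 0.61, or 2.13 without replicate 1 of WT day 0). The treated pairs, at 13.0 and 40.9 CPM for WT and 23.7 and 41.3 CPM for null, overlapped (log2 fold change 0.28, SE 0.52). *Ly6k*, a gene known from testis and sperm function, had 4 and 0 counts in the untreated WT pair and 33 and 6 in the untreated null pair, which is 0.392 and 0 against 2.71 and 2.16 CPM. The treated WT pair had 7 and 11 counts and the treated null pair 41 and 58, or 0.609 and 1.16 against 6.36 and 7.76 CPM. *Ly6k* was apart at both days, 8.13-fold higher in *Hsf1* null mice at day 0, where the WT level rests on 4 counts in 1 mouse (log2 fold change 3.02, SE 0.84), and 7.94-fold higher at day 15 (log2 fold change 2.99, SE 0.66). *Psca*, which encodes prostate stem cell antigen, a protein of epithelial surfaces, had no count in either untreated WT mouse and 36 and 10 counts in the untreated null pair, 2.96 and 3.59 CPM. Against a floor of 3 counts over the 2 WT mice, it was at least 13-fold higher in *Hsf1* null mice. With treatment *Psca* had 7 and 0 counts in the WT pair and 71 and 34 in the null pair, 0.609 and 0 against 11.01 and 4.55 CPM. It was apart between the genotypes on that day too, with a log2 fold change of 4.52 (SE 1.00) that rests on 7 counts in 1 WT mouse. Its log2 fold change was 3.63 without replicate 2 of WT day 15 and 3.76 without replicate 1 of *Hsf1* null day 15.

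**Figure D2:**
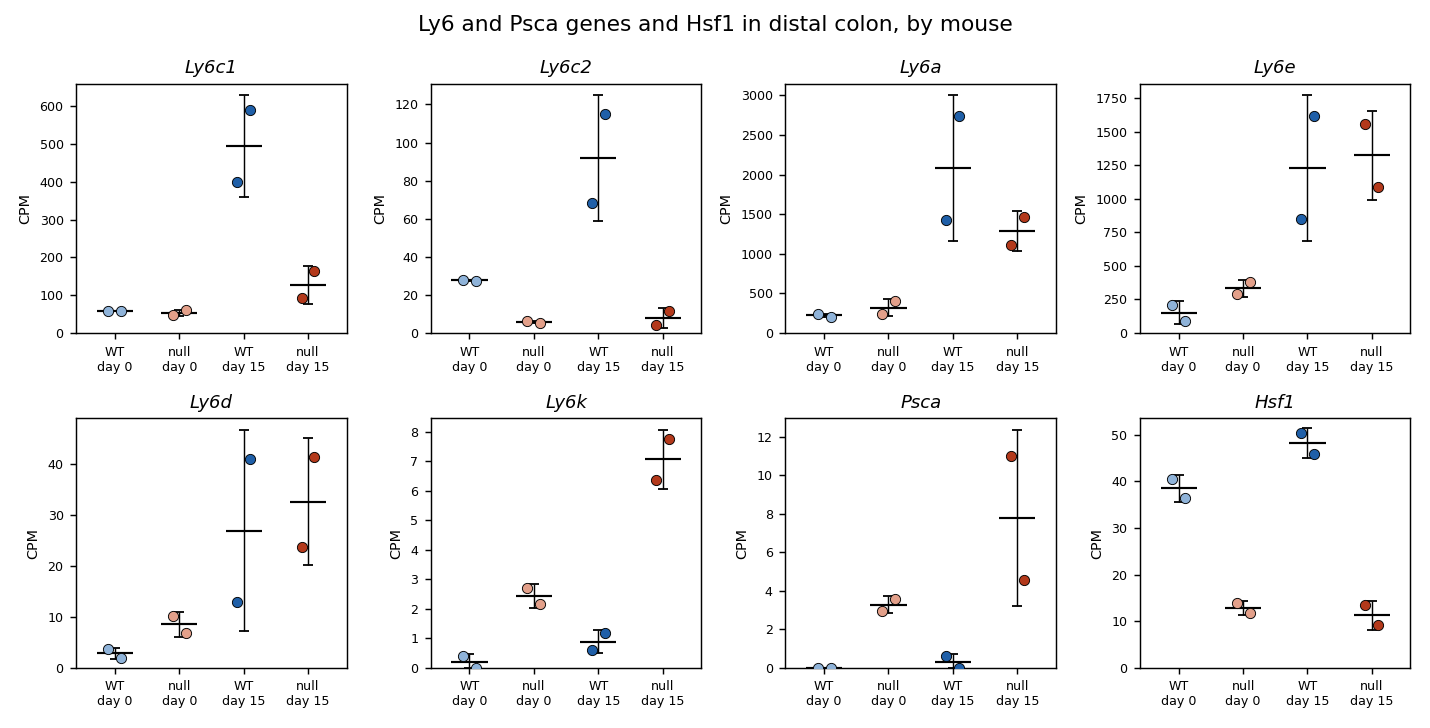
CPM of the 7 members and *Hsf1* in each mouse (points), with the mean and SD of each group (line and bars, n = 2, bars stopping at 0) on axes scaled to each gene. *Ly6c2* is low and *Ly6k* and *Psca* are high in both *Hsf1* null groups, and *Ly6a*, *Ly6c1*, *Ly6d* and *Ly6e* sit higher at day 15 than at day 0.

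Between *Hsf1* null and WT mice at day 15, 4 of the 7 members met the threshold in edgeR's quasi-likelihood test (adjusted p below 0.05 and a log2 fold change beyond 1 in either direction), 2 higher and 2 lower, and 3.17% of all tested genes did. At day 0 none of the 7 and 0% of all tested genes passed in edgeR, with 5 members and 6.29% of all tested genes at an unadjusted p under 0.05, and DESeq2 called 17 genes, 1 of them a member, *Ly6c2*. At day 0 the 2 mice of 1 genotype were all above or all below those of the other in 6 members, and at day 15 in 4. Over all tested genes this held for 37.1% at day 0 and 54.8% at day 15. These contrasts chose the members, and nothing is read from the counts. The median log2 fold change of the 7 was 1.15 at day 0 and 0.10 at day 15, beside -0.01 and -0.03 over all tested genes. All 4 lost their call without replicate 1 or replicate 2 of *Hsf1* null day 0 or without replicate 2 of WT day 15. Without replicate 1 of *Hsf1* null day 15 *Ly6c2* alone kept its call. Far fewer of all genes were called in these fits as well. With a fit of the 4 mice at day 15 alone the count was 0, and 6 of all genes were called. With a block for the replicate number it was 2, and 343 of all genes were called. The log2 fold change of *Ly6c2* at day 15 lay between -4.50 and -3.00 over 16 alternative settings, of which 4 lost its call. The *Hsf1* null allele and the chromosome segment inherited with it cannot be told apart in these groups, so neither can their parts in the genotype differences.

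AOM–DSS raised 5 of the 7 members in WT mice, and 7.74% of all tested genes were called in either direction in that comparison. *Ly6a* rose 9.39-fold (log2 fold change 3.23, SE 0.41, adjusted p = 0.00597 in edgeR). *Ly6c1* rose 8.63-fold (log2 fold change 3.11, SE 0.34, adjusted p = 0.00431) and *Ly6e* 8.18-fold (log2 fold change 3.03, SE 0.48, adjusted p = 0.0103). *Ly6d* rose 8.78-fold (log2 fold change 3.13, SE 0.61, adjusted p = 0.0185) and *Ly6c2* 3.32-fold (log2 fold change 1.73, SE 0.43, adjusted p = 0.038). Both day 15 mice were above both day 0 mice for each of these 5, as for 6 of the 7 members, while day 15 and day 0 mice were apart in 62.5% of all tested genes. *Ly6k* did not pass (log2 fold change 1.53, SE 0.87, adjusted p = 0.284), and without replicate 1 of WT day 0, which holds all 4 counts of that group, its log2 fold change was 5.74 (adjusted p = 0.241). With all 8 mice *Psca* did not pass either (adjusted p = 0.257), and its fold is at least 1.42 against the floor of 3 counts. The median log2 fold change of the 7 members was 3.11, beside 0.00 over all tested genes. It takes *Psca* at its fitted value, and with *Psca* at its bound the middle value is 3.03. *Ly6c2* and *Ly6d* lost their call without replicate 1 of WT day 0. *Ly6c2*, *Ly6d* and *Ly6e* lost it without replicate 2 of WT day 0 or replicate 2 of WT day 15. Far fewer of all genes were called in these fits as well. *Ly6c2* was also lost without either *Hsf1* null day 0 mouse. The log2 fold change of *Ly6d* was 2.09 without replicate 2 of WT day 15 and 3.75 without replicate 1 of WT day 0. That of *Ly6e* was 2.49 and 3.79 in the same 2 fits. The summed counts of *Ly6c1* and *Ly6c2* rose by a log2 fold change of 2.79 (adjusted p = 0.00597).

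In *Hsf1* null mice AOM–DSS raised 4 of the 7 members, and 11.8% of all tested genes were called. *Ly6a* rose 4-fold (log2 fold change 2.0, SE 0.39, adjusted p = 0.0191 in edgeR), *Ly6e* 3.96-fold (log2 fold change 1.99, SE 0.46, adjusted p = 0.0264) and *Ly6d* 3.72-fold (log2 fold change 1.90, SE 0.55, adjusted p = 0.0498). *Ly6c1* rose 2.39-fold (log2 fold change 1.26, SE 0.32, adjusted p = 0.0346). *Ly6c2* did not pass and its mice overlapped between the days (log2 fold change 0.39, SE 0.47, adjusted p = 0.599). *Ly6k* was higher in both day 15 mice without passing (log2 fold change 1.50, SE 0.63, adjusted p = 0.13), and so was *Psca* (log2 fold change 1.26, SE 0.85, adjusted p = 0.332). The median of the 7 was 1.50, beside 0.05 over all tested genes. All 4 lost their call without replicate 1 or replicate 2 of *Hsf1* null day 0 or without replicate 2 of *Hsf1* null day 15. Some of them lost it without replicate 1 of WT day 0 or replicate 1 of *Hsf1* null day 15. *Ly6d* was lost without any 1 of the 6 mice other than those of WT day 15, with a log2 fold change between 1.44 and 2.25. The sum of *Ly6c1* and *Ly6c2* rose by 1.19 on the log2 scale (adjusted p = 0.0421).

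**Figure D3:**
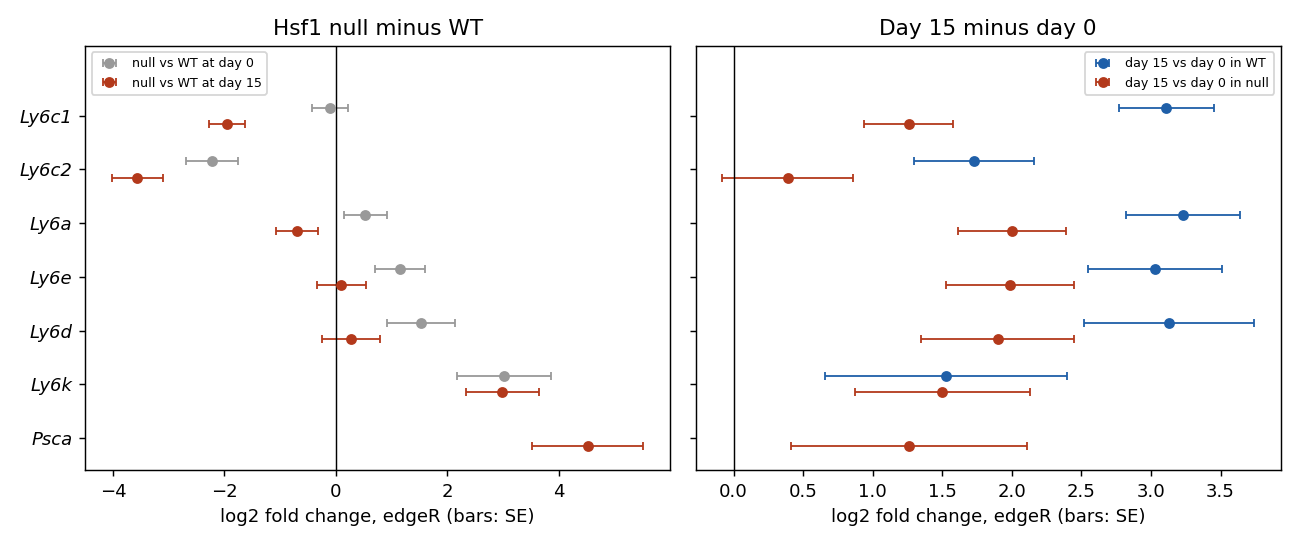
Log2 fold changes of the 7 members with their SE, for *Hsf1* null minus WT at each day (left) and day 15 minus day 0 in each genotype (right). *Psca* is not drawn where WT mice at day 0 had no count. In the right panel the estimates of *Ly6a*, *Ly6c1*, *Ly6d* and *Ly6e* lie above 1 in both genotypes.

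The response to AOM–DSS was compared between the genotypes in the same fit. The *Hsf1* null response minus the WT response, on the log2 scale, was -1.85 for *Ly6c1* (SE 0.45), -1.34 for *Ly6c2* (SE 0.63), -1.23 for *Ly6a* (SE 0.54), -1.24 for *Ly6d* (SE 0.80) and -1.05 for *Ly6e* (SE 0.63). It was -0.03 for *Ly6k*, and for *Psca*, with no count in untreated WT mice, no size is given. Over 16 alternative settings it ranged from -1.85 to -0.19 for *Ly6d*, from -1.80 to -0.51 for *Ly6e* and from -4.24 to 0.48 for *Ly6k*. None of the 7 members passed in edgeR, where 0.00696% of all tested genes did. At an unadjusted p under 0.05 there were 2 members and 8.62% of all tested genes, and DESeq2 called 116 genes, 1 of them a member, *Ly6c1*. A smaller rise in *Hsf1* null mice was thus not shown for any member in edgeR, and this contrast holds the genotype differences that chose them.

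Other genes of the family lie in the same row, and 9 of 14 listed were analyzed, 6 of them tested. None was called between the genotypes at either day. *Ly6l* (2010109I03Rik in the table), a relative of unsettled function, measured 51.8 and 76.6 CPM in the untreated WT pair and 113 and 141 CPM in the untreated null pair, and overlapped at day 15 (log2 fold change 0.30). *Lynx1*, a modulator of nicotinic acetylcholine receptors, rose in *Hsf1* null mice after AOM–DSS (log2 fold change 1.34, adjusted p = 0.0266 in edgeR). *Gml* had no count in any day 0 mouse, 22 and 43 counts in the treated WT pair, and 0 and 3 counts in the treated null pair. *Gml* was called in the WT response (adjusted p = 0.0446), at least 13.1-fold higher at day 15 against the floor. Its neighbour *Gml2*, which was too low to be tested, had 8 and 29 counts in the treated WT pair and 0 and 3 in the treated null pair. *Gpihbp1*, which carries lipoprotein lipase across capillary endothelium, did not pass (log2 fold change -1.86 between the genotypes at day 15, adjusted p = 0.154), nor did *Ly6i* or *Slurp1*. *Ly6f* and *Ly6h* had at most 8 counts a mouse. The median log2 fold change of the 6 tested was -0.26 between the genotypes at day 15, 0.97 in the WT response and 0.71 in the *Hsf1* null response, or 0.09 with *Gml* at its bound. Over all tested genes these medians were -0.03, 0.00 and 0.05.

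Of 24 listed family members on other chromosomes or elsewhere on chromosome 15, 10 were tested. *Ly6g6c* was higher in *Hsf1* null mice at day 15 (log2 fold change 3.47, adjusted p = 0.0339 in edgeR), *Cd177*, a neutrophil surface protein also made by colon epithelium, rose after AOM–DSS in WT (log2 fold change 1.35, adjusted p = 0.0389) and in *Hsf1* null mice (2.95, adjusted p = 0.0123), and *Ly6g6d* fell in WT mice (log2 fold change -2.64, adjusted p = 0.0481). GPI anchors, which these proteins need, are built and attached by a further set of genes. Of the 29 tested none was called between the genotypes or in the WT response, with medians of -0.02, 0.02 and -0.14 on the log2 scale. In the *Hsf1* null response *Gpaa1*, a subunit of the transamidase that attaches the anchor, rose (log2 fold change 1.21, adjusted p = 0.0289), and *Pigp*, *Pigg* and *Pigh* fell. *Gpaa1* lies 0.143 Mb from *Hsf1*.

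Markers of the cells that are known to carry these genes moved in the same samples, and in bulk tissue fewer cells of a type and less RNA per cell cannot be told apart. The 7 neutrophil markers analyzed summed to 11.4 and 3.18 CPM in the untreated WT pair and 4.02 and 3.95 CPM in the untreated null pair. They summed to 131 and 527 CPM in the treated WT pair and 6.20 and 23.5 CPM in the treated null pair. Of the 7, 5 rose in the WT response and 4 were lower in *Hsf1* null mice at day 15, among them *S100a9* (log2 fold change -4.89, adjusted p = 0.021) and *S100a8* (-6.20, adjusted p = 0.0161), and *Ngp* had no count outside WT mice at day 15. The 10 monocyte and macrophage markers summed to 1569 and 1364 CPM in the untreated WT pair and 1647 and 2242 CPM in the untreated null pair. With treatment they summed to 1348 and 2219 CPM in the WT pair and 502 and 917 CPM in the null pair, and 1 of them, *Chil3*, which had no count in untreated WT mice, was called lower in *Hsf1* null mice. The 12 endothelial markers summed to 271 and 182 CPM in the untreated WT pair and 189 and 202 CPM in the untreated null pair. The treated pairs were at 580.3 and 511 CPM for WT and 153 and 261 CPM for null, and 3 markers were lower in *Hsf1* null mice, *Plvap*, *Eng* and *Cdh5*. All tested markers of these 3 lists were below 0 in log2 fold change between *Hsf1* null and WT mice at day 15, 7 of 7, 10 of 10 and 12 of 12. At day 0 the sums of the neutrophil and endothelial lists overlapped between the genotypes. The monocyte and macrophage sum was higher in the untreated null pair, but it rests on *Plac8*. Without *Plac8* it was 806 and 259 CPM in the WT pair and 284 and 388 CPM in the null pair, which overlapped, and 7 of the 10 markers were below 0.

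Other lists were apart at day 15 as well. The 10 fibroblast markers, all below 0 with none called, summed to 2537 and 2498 CPM in the treated WT pair and 491 and 1539 CPM in the treated null pair (median log2 fold change -1.14), and overlapped at day 0. The 8 T cell markers, all below 0 with none called, summed to 116 and 211 CPM for WT and 58.3 and 93.5 CPM for null, and overlapped at day 0. The 6 B and plasma cell markers, of which 2 were called lower, summed to 3251 and 3590 CPM for WT and 231 and 465 CPM for null, and at day 0 to 1955 and 1707 against 592 and 1425 CPM, which were apart only with *Jchain*. Without *Jchain* the day 0 sums overlapped, at 248.9 and 89.3 against 121 and 46.7 CPM. *Ly6c1* and *Ly6c2* were lower in the same treated null mice. The part of any of these cells in the *Ly6c1* and *Ly6c2* results was not tested.

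Of the T cell markers, *Cd3e* rose in each response. Interferon-induced genes, the class of *Ly6e*, had a median log2 fold change of 0.93 in the WT response and 1.43 in the *Hsf1* null response over 33 genes, of which none and 3 were called, *Tap1*, *Psmb9* and *Oas2*. Their summed level was 631 and 2999 CPM in the treated WT pair and 1517 and 1007 CPM in the treated null pair, which overlapped, with a median log2 fold change of -1.03 between the genotypes. At day 0 it was 1073 and 768 CPM in the WT pair and 561 and 668 CPM in the null pair, lower in *Hsf1* null mice with 32 of 33 genes below 0 and a median of -0.98, whereas *Ly6e* was higher in the untreated null pair. Of the regenerative epithelial genes listed beside *Ly6a*, 4 of 14 rose and 1 fell in WT mice and 2 rose in *Hsf1* null mice, where *Krt7* was called in both (log2 fold change 1.68, adjusted p = 0.0136, and 1.48, adjusted p = 0.0197). Between treated null and WT mice all 14 were below 0 (median log2 fold change -0.78), and *Il33* was called lower (-3.23, adjusted p = 0.0443 in edgeR). Their sums overlapped at that day, at 1552 and 2447 CPM for WT and 1203 and 1640 CPM for null, and without *Clu*, the most abundant of them, were apart at 994 and 1218 against 638 and 841 CPM. The part of these cells in the *Ly6a* and *Ly6c1* results was not tested. Squamous epithelium, which borders the colon at the anus and is known to carry *Ly6d* and *Psca*, was checked although the study's methods describe cutting away the end nearest the anus before the piece for RNA was taken. The check was made with 11 analyzed of 21 listed markers. They summed to 13.7 and 10.7 CPM in the untreated WT pair and 13.6 and 9.70 CPM in the untreated null pair, when *Krt6b* and *Dsg3* had no count. The treated pairs were at 32.3 and 54.0 CPM for WT and 28.2 and 52.7 CPM for null, where *Dsc3* had no count. The summed level overlapped between the genotypes at both days. Of the 6 tested, 4 were above 0 between treated null and WT mice (median log2 fold change 0.74) and 3 at day 0, and none was called. The 2 called in the WT response were *Sprr1a* and *Krt13*, and *Krt14* was called with them in *Hsf1* null mice. The part of squamous cells in the levels of *Ly6d*, *Ly6k* and *Psca* was not tested.

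Colonocyte and goblet cell markers were higher in treated *Hsf1* null mice. Colonocyte marker sums were apart at both days, at 4872 and 7384 CPM in the untreated WT pair and 10600 and 10580 CPM in the untreated null pair, and at 3198 and 4411 CPM against 9299 and 5936 CPM after treatment, with 1 of 8 markers called at day 15. They were thus higher in the mice in which *Psca*, *Ly6k*, *Ly6d* and *Ly6e* were higher at day 0, and their part in those differences was not tested. Goblet cell marker sums overlapped at day 0 and were apart at day 15, at 7235 and 8882 CPM for WT and 39800 and 20100 CPM for null, with 3 of 6 called higher. Smooth muscle marker sums were higher in the treated null pair, with none called between the genotypes and 5 of 6 falling in the WT response. In the untreated pairs they were lower in null mice only with *Acta2*, and overlapped without it.

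The surroundings of *Hsf1* were described by distance. Within 2 Mb, 93 genes other than *Hsf1* were tested, and the genotype contrast at day 15 called 9 of them, 6 with higher and 3 with lower levels in *Hsf1* null mice. Without the 7 members, 5 of 86 were called (5.81%), against 10 of 151 between 2 and 10 Mb (6.62%), 13 of 328 on the rest of chromosome 15 (3.96%) and 417 of 13707 on other chromosomes (3.04%). The 5, named after their values were seen, were *Eppk1*, *9030619P08Rik*, *Apol10a* and *Apol7c*, which were higher, and *Csf2rb2*, a receptor subunit of myeloid cells, which was lower in *Hsf1* null mice. *Apol10a* and *Apol7c*, on the other side of *Hsf1*, had no count in WT mice at day 15 and 226 and 62 counts in *Hsf1* null mice. At day 0 no gene was called in any of these bins. An unadjusted p under 0.05 was then found for 5.81% of the genes within 2 Mb that are no members, 13.9% between 2 and 10 Mb, 8.84% on the rest of chromosome 15 and 6.13% on other chromosomes. At day 15 these shares were 31.4%, 23.8%, 23.5% and 23.1%. Just inside the limit of 2 Mb were *Kctd17* (1.93 Mb) and *Il2rb* (1.98 Mb), with log2 fold changes of 0.17 and -1.55 between treated null and WT mice. Just outside were *C1qtnf6* (2.02 Mb, log2 fold change -0.30) and *Sstr3* (2.04 Mb), which was too low to be tested, with a mean of 1.05 CPM in the treated WT pair and 0.645 CPM in the treated null pair.

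**Figure D4:**
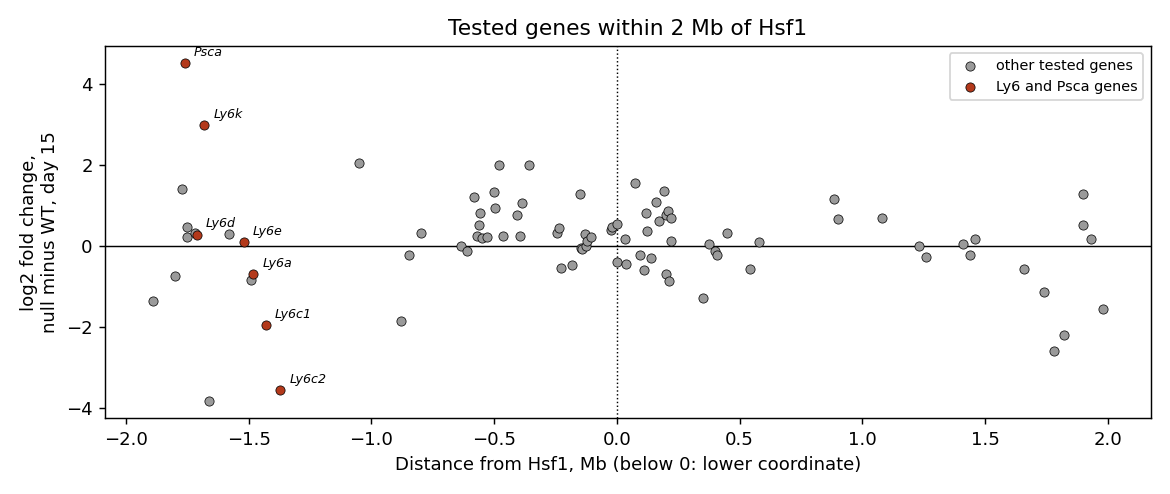
Log2 fold change between *Hsf1* null and WT mice at day 15 of 91 tested genes by their distance from *Hsf1* in Mb, members in red. The other 2 of the 93, with no count in one group, are not drawn. *Psca* (4.52) and *Ly6k* (2.99) lie above 0, *Ly6c1* (-1.95) and *Ly6c2* (-3.56) below it, and *Ly6a*, *Ly6d* and *Ly6e* between -0.70 and 0.28. Genes that are no members lie on both sides of 0, such as *Gml* (1.66 Mb, -3.83) and *Eppk1* (0.357 Mb, 2.01).

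Likeness between genes across the 8 mice is given as a description, since the points share groups and libraries. Pearson's r of log2(CPM + 1) was 0.93 between *Ly6a* and *Ly6e*, 0.94 between *Ly6d* and *Ly6e*, 0.90 between *Ly6a* and *Ly6c1* and 0.90 between *Ly6k* and *Psca*. It was -0.84 between *Ly6c2* and *Psca* and -0.64 between *Ly6c2* and *Ly6k*. Among tested genes that are no members, the most alike over the 8 mice were *Phf10*, *Prkrip1* and *Ak4* for *Ly6a* (r from 0.973 to 0.985). *Lama1*, *Cdkn2d* and *Sprr2h* were most like *Ly6c1* (0.989 to 0.992), and *Sec61a1*, *Uck2* and *Samd5* most like *Ly6c2* (0.970 to 0.979). *Fgd2*, *Pecr* and *Thumpd1* were most like *Ly6d* (0.976 to 0.979), and *Snx11*, *Gtf2h5* and *Sncb* most like *Ly6e* (0.963 to 0.966). *Ndufs4*, *Minos1* and *Rabggtb* were most like *Ly6k* (0.979 to 0.985), and *Arfip1*, *Pfdn5* and *Rbm6* most like *Psca* (0.959 to 0.970). Of these 21 genes 1, *Pfdn5*, lies on chromosome 15. Of all tested genes other than *Hsf1*, 93 lie there within 2 Mb of it, 151 at 2 to 10 Mb and 328 beyond. On other chromosomes there are 13707, and nothing is read from the count.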

How the data were processed

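RNA-seq of the distal colon of 8 mice was analyzed in 4 groups of 2, by the genotype and day in the labels. The authors aligned reads to mm10 with STAR and deposited raw counts per gene symbol. The counting program, annotation and strand setting are not given in the sources used here. A second deposited table, counts divided by DESeq2 size factors, was not used. The lowest of the genes' highest counts was 6. The members and gene lists were chosen with earlier results of these data known. P-values measure the spread between these mice.

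Counts were fitted in R 4.3.3 with edgeR 4.0.16 (TMM, 1 quasi-likelihood model of the 4 groups, genes with a mean normalized count above 5). Adjustment was by Benjamini-Hochberg over all 14371 genes in each of 5 comparisons, and a call is an adjusted p under 0.05 with an absolute log2 fold change above 1. With 2 against 2 mice an exact permutation test cannot go below p = 0.333. A floor of 3 counts over a group sets lower bounds. Genes named are the members, *Hsf1*, the 3 most alike to each member, the listed neighbours, up to 4 called genes per list by mean CPM, and the 2 genes on each side of the 2 Mb limit. Markers with no count, the leading gene left out of a marker sum and the 5 called neighbours were named after their values were seen. Positions come from GENCODE M21 (15276 symbols matched directly, 451 by an older symbol, 132 not). Fits were tested on simulated data. Alternatives were DESeq2 1.42.0, its size factors, filters, thresholds, thinning, a replicate block, fewer samples and the sum of *Ly6c1* and *Ly6c2*. A block that swaps the untreated WT mice was added after the data were seen.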

Additional observations from a re-analysis of the deposited data

How the results depend on the processing

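Of 574 alternative values of the members' log2 fold changes, 508 kept their direction and side of the threshold, 52 lost a call, 2 gained one and 12 changed sign. With DESeq2 1 member was called between the genotypes at day 0 (*Ly6c2*) and 1 in the genotype difference of the response (*Ly6c1*), against none in edgeR. With an adjusted p under 0.005, 0 members and 0 of all genes were called between the genotypes at day 15. In the WT response 1 member and 12 of all genes were called, and in the *Hsf1* null response 0 members. With only the groups compared, 0 members and 6 of all genes were called between the genotypes at day 15. Leaving out 1 mouse at a time gave 0 to 4 members between the genotypes at day 15, 2 to 5 in the WT response and 0 to 4 in the *Hsf1* null response, where a group of 1 mouse is assumed to vary like the others. The cause was not tested.

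Signs turned in values that were not called. With 1 mouse left out, the log2 fold change between the genotypes ranged from -0.27 to 0.055 for *Ly6c1* at day 0, and at day 15 from -0.33 to 1.33 for *Ly6d* and from -0.29 to 0.64 for *Ly6e*. That of *Ly6c2* in the *Hsf1* null response ranged from -0.55 to 0.94. In the genotype difference of the response, *Ly6k* ranged from -4.24 to 0.48 and *Psca* from -3.98 to 1.27, and *Psca* was 1.52 in counts thinned to the smallest library. In the thinned counts, and without WT day 15 replicate 1, *Psca* had no count in WT mice and its WT response no value. The thinned *Ly6c2* share of *Hsf1* null day 15 replicate 2 was 8.03%.

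The replicate numbers pair different animals, and the correlations of same-numbered mice across genes were between -0.301 and 0.202. With the replicate block 2 members were called between the genotypes at day 15, *Ly6k* and *Psca* being lost, and 3 in the *Hsf1* null response, *Ly6d* (adjusted p = 0.0668 in edgeR) being lost. The block left 343 of all genes called between the genotypes at day 15, against 455. With the WT mice at day 0 exchanged, 4 members and 1314 of all genes were called in that comparison. Over all tested genes DESeq2 called 17 between the genotypes at day 0, 1177 at day 15, 1735 in the WT response and 116 in the genotype difference of the response, against 0, 455, 1112 and 1 in edgeR.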
